A study of Mus musculus with 33 samples.

Results

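A set of 9 regulators that mark the primitive streak and the tailbud of the mouse embryo were followed through an RNA sequencing time course of cultures derived from embryonic stem cells. They were taken by gene symbol, 9 of the 17120 genes of the deposited table: the T-box factors T (brachyury) and Eomes, the homeobox factors Mixl1, Evx1 and Nkx1-2, the caudal factors Cdx1, Cdx2 and Cdx4, and the vertebrae development gene Vrtn. T and Vrtn, 2 of the 9, were chosen by their CPM over the 11 groups, for the course of their levels in AGN, so their values are given as a description with no test. The other 7 were tested within a fit over all 17120 genes.

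The study differentiated mouse embryonic stem cells carrying the ScxGFP reporter, in which regulatory sequence of the tendon gene Scx drives GFP, to paraxial mesoderm (PM) by D6, and asked how retinoid signalling divides tendon from fibrocartilage fates after that day. From D6 all induced cultures received TGFβ1, the hedgehog pathway agonist SAG and FGF2. In addition they received 1 of 2 retinoid ligands, at different doses: CD1530, which activates RARγ, or AGN 193109 (AGN), an inverse agonist of the RARs. Libraries were made in 3 replicates for PM, collected as embryoid bodies at D6, and for each condition on day 0.25 of induction, named D6.25, on days 0.75 and 1.5, named D6.75 and D7.5, and on days 2.5 and 4, named D8.5 and D10, so that 11 groups held 33 libraries. PM formation had used LDN-193189, a BMP inhibitor, and CHIR, a Wnt agonist. Whether these PM cultures had also received AGN before D6 is not stated for these libraries, nor which of the study's ScxGFP lines each library came from. The p-values therefore measure the spread between these libraries, described by the study as biological replicates.

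In the gastrulating embryo the primitive streak is the site where epiblast cells become mesoderm and endoderm, and the tailbud continues to make axial tissue afterwards. T is needed for posterior mesoderm and for the notochord, Eomes for early mesoderm and definitive endoderm, and Mixl1 for the allocation of mesendoderm. Evx1 marks the posterior streak, Nkx1-2 marks the neuromesodermal region beside it, and the Cdx factors pattern the posterior axis upstream of Hox genes. Wnt and FGF signals sustain this region, and retinoic acid from the somites opposes it, while Cdx1 is itself a known retinoic acid target.

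Total counts were between 17116084 and 38120841 per library, and AGN D8.5 replicate 1 was the library above 22775275. The 5 retinoid response genes tested as a check of the labels (Cyp26a1, Cyp26b1, Rarb, Dhrs3 and Stra8) had a summed level of 801.5 ± 2.39 CPM in CD1530 and 37.2 ± 0.35 CPM in AGN at D10, and all 5 were higher in CD1530. Levels are CPM, each library's counts scaled to its TMM-adjusted total, as mean ± SD of 3 libraries. The defining PM markers Tbx6 and Msgn1 had their highest group means in the PM libraries. There they stood at few CPM, Tbx6 at 9.56 ± 0.77 CPM and Msgn1 at 3.38 ± 0.61 CPM. Pou5f1, a pluripotency factor, was at 701 ± 8.17 CPM and Nanog at 466 ± 7.61 CPM in the same libraries. In such bulk libraries, fewer cells of a type and less RNA per cell cannot be told apart.

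The region just before the start of T, Evx1 and Vrtn is shown because these genes ended the course at high levels in AGN and low levels in CD1530. Each window holds the 250 bases upstream of a RefSeq start on GRCm38.p6, read 5′ to 3′ on the strand of the gene, and Vrtn has 3 such starts. Capitals mark matches, on either strand, to CTTTGA (TCF/LEF factors of the Wnt pathway), AGGTCA or AGTTCA (single core sites of retinoic acid receptors), AGGTGT (T-box factors) or TTTATNG (Cdx factors).
T (chr17:8434173-8434422, plus strand): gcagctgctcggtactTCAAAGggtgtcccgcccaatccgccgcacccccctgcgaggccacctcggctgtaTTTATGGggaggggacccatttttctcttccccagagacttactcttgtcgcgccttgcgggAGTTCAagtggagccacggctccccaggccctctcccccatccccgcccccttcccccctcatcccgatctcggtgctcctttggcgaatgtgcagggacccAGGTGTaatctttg
Evx1 (chr6:52313248-52313497, plus strand): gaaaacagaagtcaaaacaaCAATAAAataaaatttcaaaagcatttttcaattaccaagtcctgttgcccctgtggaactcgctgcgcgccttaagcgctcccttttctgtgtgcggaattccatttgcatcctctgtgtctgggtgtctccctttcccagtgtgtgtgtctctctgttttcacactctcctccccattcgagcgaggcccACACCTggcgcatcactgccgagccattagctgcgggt
Vrtn first start (chr12:84640769-84641018, plus strand): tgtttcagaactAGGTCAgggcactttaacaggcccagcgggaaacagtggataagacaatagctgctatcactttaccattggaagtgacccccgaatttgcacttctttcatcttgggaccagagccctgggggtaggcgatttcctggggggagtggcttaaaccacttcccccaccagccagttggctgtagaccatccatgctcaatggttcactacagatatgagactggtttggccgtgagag
Vrtn middle start (chr12:84642305-84642554, plus strand): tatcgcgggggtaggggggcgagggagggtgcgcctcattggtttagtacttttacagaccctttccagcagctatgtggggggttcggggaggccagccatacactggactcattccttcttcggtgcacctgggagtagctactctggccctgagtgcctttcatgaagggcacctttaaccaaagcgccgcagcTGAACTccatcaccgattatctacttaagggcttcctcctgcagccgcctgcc
Vrtn last start (chr12:84642646-84642895, plus strand): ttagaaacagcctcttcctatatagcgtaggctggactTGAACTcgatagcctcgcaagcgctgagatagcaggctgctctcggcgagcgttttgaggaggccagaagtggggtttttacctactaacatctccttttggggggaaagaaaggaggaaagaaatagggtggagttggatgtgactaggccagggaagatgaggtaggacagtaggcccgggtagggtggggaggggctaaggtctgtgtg

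The T window held 1 word of each of the 4 kinds of factor: TCF/LEF 234, Cdx 178, receptor 116 and T-box 14 bases before the start. Evx1 held a Cdx word 230 and a T-box word 38 bases before it. Each Vrtn window held 1 receptor word, AGGTCA in the first and AGTTCA in the other two. None of these matches overlapped another. Such short words are common: among 32851 promoter windows of the same length, 13.8% held CTTTGA, 14.0% AGGTCA, 11.8% AGTTCA, 11.8% AGGTGT and 9.81% TTTATNG. The window of Cdx4 held AGGTGT, and those of Eomes, Cdx2 and Nkx1-2 held none of these words. Mixl1 and Cdx1 were not searched. A match describes these letters and is not a binding site.

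T encodes the T-box factor brachyury, and lies on chromosome 17 (GRCm38, 8434423 to 8442496, plus strand). In PM its libraries held 74.9, 79.2 and 82.9 CPM, its highest levels in the time course. With CD1530 the level went down at every time point, from 58.7, 51.0 and 55.0 CPM at D6.25 through 17.5, 19.8 and 17.8 CPM at D6.75, 7.02, 6.26 and 7.37 CPM at D7.5 and 1.79, 2.29 and 2.06 CPM at D8.5 to 0.455, 0.660 and 0.394 CPM at D10. The last group rested on 9, 12 and 7 counts and stood at 0.637% of the PM mean. With AGN the same descent was slower and then turned. The libraries held 61.5, 59.3 and 59.99 CPM at D6.25, 27.2, 26.0 and 25.2 CPM at D6.75, 17.9, 18.5 and 16.6 CPM at D7.5 and 9.45, 9.63 and 8.84 CPM at D8.5, and then 27.7, 27.1 and 26.6 CPM at D10. At D10 the AGN mean was therefore 2.92 times its own D8.5 mean and back at 34.4% of the PM mean. This turn is part of the course for which T was chosen.

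The gap between conditions in T widened at each step. The CD1530 mean was 0.911 of the AGN mean on D6.25, 0.702 of it on D6.75, then 0.389 on D7.5, 0.220 on D8.5 and 0.0185 by D10. The libraries of the conditions overlapped at none of the 5 time points, which is a description only, as T was chosen by these levels. When the 11 groups were ordered by mean, the neighbours that overlapped were AGN D10 with AGN D6.75 (27.1 ± 0.54 and 26.1 ± 1.02 CPM), and CD1530 D6.75 with AGN D7.5 (18.3 ± 1.28 and 17.7 ± 0.93 CPM).

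Vrtn, known for its link to vertebral number, lies on chromosome 12 (GRCm38, 84641019 to 84651455, plus strand). Its PM libraries held 26.1, 25.2 and 25.4 CPM. With CD1530 it went down to 16.1, 17.6 and 16.9 CPM at D6.25, stood at 7.57, 6.27 and 6.10 CPM at D6.75 and at 6.32, 6.54 and 6.07 CPM at D7.5, and went on to 2.07, 1.76 and 2.00 CPM at D8.5 and 0.152, 0.0550 and 0.337 CPM at D10. The D10 values rested on 3, 1 and 6 counts. The D6.75 and D7.5 groups overlapped, a plateau that T did not have.

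With AGN, Vrtn went below PM at D6.25, as T did, and after D6.75 it moved in the opposite direction to T at each step. Its libraries held 18.7, 19.5 and 21.0 CPM at D6.25 and 20.3, 20.9 and 17.4 CPM at D6.75, which overlapped, and then 39.1, 36.2 and 37.5 CPM at D7.5 and 43.9, 44.7 and 47.1 CPM at D8.5. At D10 they held 17.4, 16.6 and 21.1 CPM. The D8.5 mean was 177% of the PM mean, and the D10 mean was 71.9% of it. Vrtn thus peaked in AGN at D8.5, the time point at which T had its lowest AGN level. The AGN mean at D10 divided by that at D8.5 was 0.406 for Vrtn and 2.92 for T. In CD1530 Vrtn stood at 0.856 of its AGN mean on D6.25, 0.340 of it on D6.75, then 0.168 on D7.5, 0.0429 on D8.5 and 0.00986 by D10. The libraries again did not overlap at any time point, a description only, as Vrtn too was chosen by its levels.

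**Figure D1:**
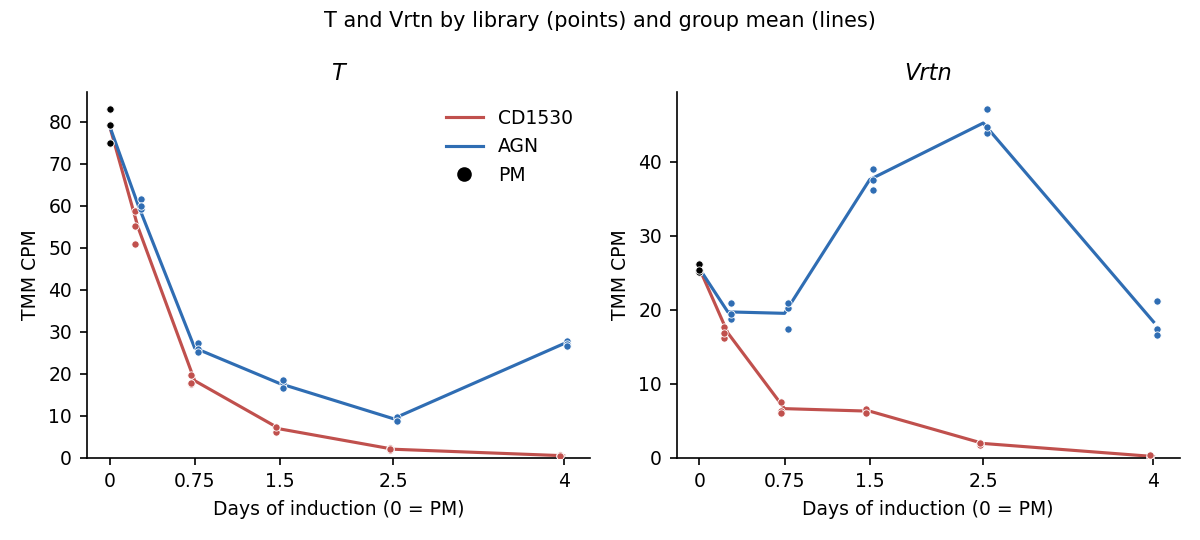
Levels of T and Vrtn in TMM CPM (vertical axes, linear from 0) against days of induction, with PM at day 0; points are the 33 libraries and lines join group means of CD1530 and AGN. T in AGN turned from 9.31 CPM at day 2.5 to 27.1 CPM at day 4, while Vrtn in AGN went from 45.2 to 18.4 CPM and both genes ended below 1 CPM in CD1530.

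Among the 7 tested members, the first 0.25 days were led by Eomes and Mixl1. Eomes (chromosome 9) held 11.1, 10.6 and 11.04 CPM in PM, and 70.4, 70.0 and 70.2 CPM in CD1530 and 83.6, 81.9 and 85.3 CPM in AGN at D6.25. Mixl1 (chromosome 1) held 9.86, 8.08 and 8.89 CPM in PM, 39.7, 41.6 and 40.3 CPM in CD1530 and 41.5, 40.2 and 40.7 CPM in AGN. Both genes thus rose several fold in every library of both conditions, and T, Vrtn and the remaining members stood below PM at the same time. Against PM, Eomes rose by 2.68 ± 0.07 (log2, SE) in CD1530 and 2.94 ± 0.07 in AGN, and Mixl1 by 2.18 ± 0.09 and 2.19 ± 0.09 (edgeR quasi-likelihood test with Benjamini-Hochberg adjustment, adjusted p at most 3.26e-24).

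Nkx1-2 went the other way at the same step. Its PM libraries held 34.6, 37.4 and 35.3 CPM, those of CD1530 at D6.25 held 2.03, 1.51 and 1.70 CPM, and those of AGN 2.38, 2.49 and 2.07 CPM. These are falls of -4.36 ± 0.14 and -3.95 ± 0.14 (log2, SE). Cdx1 fell by -1.81 ± 0.10 in CD1530 and -2.61 ± 0.11 in AGN, Cdx2 by -2.24 ± 0.13 and -1.92 ± 0.12, and Evx1 by -1.24 ± 0.14 and -0.58 ± 0.13. Cdx4 was called in neither condition, with -0.45 ± 0.22 (adjusted p = 0.0660) and -0.40 ± 0.22 (adjusted p = 0.103), although its PM libraries lay above those of both D6.25 groups. It was called in CD1530 by the likelihood ratio test (adjusted p = 0.0321) and without CD1530 D6.25 replicate 1 (adjusted p = 0.0445).

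Of the 7, 2 rose and 4 fell at D6.25 in each condition. In CD1530, 34.5% of all genes were called higher than PM and 33.3% lower, and in AGN 35.0% and 33.1%, so the members' shares of 2 and 4 of 7 are read against a table in which most genes changed. The AGN and CD1530 contrasts share the PM libraries and are given side by side for that reason. PM was collected as embryoid bodies and the later groups as monolayers in induction medium, so the change of culture format and that of medium cannot be told apart.

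The genes that accompany the streak in the embryo were followed beside the members. Of 8 genes of the anterior streak and mesendoderm, 7 were higher at D6.25 than in PM in each condition, with a median log2 change of 4.05 in CD1530 and 4.06 in AGN against 0.00 for all genes tested in both. They included Lhx1 (6.24 ± 0.11 in CD1530), Cer1, a Nodal and BMP antagonist (5.51 ± 0.17), Gsc (5.08 ± 0.12) and Gata6 (4.46 ± 0.10), with 6.53 ± 0.11, 6.14 ± 0.16, 5.27 ± 0.12 and 4.52 ± 0.10 in AGN (log2, SE). The list rose from a summed 16.1 ± 1.56 CPM in PM to 300 ± 0.67 CPM in CD1530 and 354 ± 2.08 CPM in AGN.

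Of 12 tailbud and presomitic genes, 4 were higher and 7 lower in each condition, with medians of -0.85 and -0.58. Sp5, a Wnt target, fell by -2.49 ± 0.05 in CD1530 and Msgn1, a presomitic factor, by -1.94 ± 0.28. Of 8 Wnt feedback genes, 3 were higher and 5 lower in each condition. Axin2, which is induced by Wnt signalling and limits it, fell by -2.21 ± 0.06 in CD1530, while Dkk1 rose by 3.94 ± 0.11 and Lgr5 by 4.31 ± 0.18. Notochord genes were higher in 8 of 8 and 8 of 8, and their summed level went from 193 ± 10.2 CPM in PM to 786 ± 11.9 CPM in CD1530 and 825 ± 12.6 CPM in AGN. Of these sums Krt8 and Krt18 held 184 ± 9.501, 686 ± 12.3 and 717 ± 12.7 CPM, and the other 6 genes 8.78 ± 1.03, 101 ± 0.34 and 108 ± 0.42 CPM. Whether these lists had a part in the members' changes was not tested.

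After D6.25 Eomes and Mixl1 came down in both conditions, and both stood higher in AGN at D6.75. At D6.75 Eomes held 12.2, 14.3 and 14.1 CPM in CD1530 and 22.2, 24.3 and 24.9 CPM in AGN, a difference of -0.81 ± 0.08 (log2, SE) with adjusted p = 2.69e-11. At D7.5 and D8.5 its levels were close, with -0.23 ± 0.10 (adjusted p = 0.0815) and 0.16 ± 0.10 (adjusted p = 0.229). Without CD1530 D7.5 replicate 1, which held 8.98 CPM beside 6.396 and 7.41 CPM, the D7.5 difference was -0.35 (adjusted p = 0.00803). At D10 the groups parted again, with 3.08, 2.697 and 2.19 CPM in CD1530 and 11.504, 10.4 and 10.99 CPM in AGN, a difference of -2.03 ± 0.12 with adjusted p = 5.36e-18. AGN at D10 had thus returned to the PM level: the difference from PM was 0.00 ± 0.09 and the libraries overlapped.

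Mixl1 fell to 2.03, 2.41 and 2.43 CPM in CD1530 and 4.19, 4.08 and 3.74 CPM in AGN at D6.75 (-0.81 ± 0.15, adjusted p = 4.77e-05). By D8.5 it was nearly absent from both, with 2, 5 and 6 counts in CD1530 and 20, 6 and 3 counts in AGN, and the libraries overlapped. In AGN it then came back to 2.19, 1.87 and 1.72 CPM at D10, while CD1530 held 0.152, 0.220 and 0.225 CPM. The D10 difference was -3.24 ± 0.32 with adjusted p = 2.71e-11, and the AGN level at D10 was 21.5% of that in PM.

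Evx1 (chromosome 6) was lower in CD1530 than in AGN at all 5 time points. Its PM libraries held 8.95, 6.28 and 7.002 CPM. In CD1530 the level stayed below PM, with 3.46, 3.11 and 2.85 CPM at D6.25, a lowest mean of 1.66 ± 0.31 CPM at D7.5, and 2.68, 3.85 and 3.26 CPM at D10. In AGN it was at 3.85 ± 0.50 CPM at D7.5, and then climbed to 13.3, 14.0 and 13.6 CPM at D8.5 and 27.3, 29.9 and 28.9 CPM at D10. Its highest level in the time course was therefore in AGN at D10, at 387% of the PM mean, with no overlap with any other group.

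The difference in Evx1 grew from -0.67 ± 0.15 on D6.25 (adjusted p = 0.00589) to -0.88 ± 0.16 by D6.75, -1.20 ± 0.18 on D7.5, -1.96 ± 0.13 at D8.5 and -3.14 ± 0.12 at D10 (adjusted p = 4.87e-24). The D6.25 call was lost without CD1530 D6.25 replicate 3 (adjusted p = 0.0602). The antisense gene Evx1os overlaps exons of Evx1 and went from 2.23 ± 0.40 CPM in PM to 16.3 ± 2.87 CPM in AGN at D10 and 2.12 ± 0.08 CPM in CD1530. The strand setting of the counting is not stated, so reads of the pair cannot be told apart where their exons overlap.

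Nkx1-2 (chromosome 7) stayed low after its early fall and did not differ by a call between conditions from D6.25 to D8.5, where adjusted p was between 0.403 and 0.838. At D10 its libraries held 6, 0 and 3 counts in CD1530 and 19, 19 and 10 counts in AGN, or 0.157 ± 0.15 and 0.975 ± 0.33 CPM. The difference was -2.55 ± 0.44 (log2, SE) with adjusted p = 4.80e-06, and the AGN level was 2.73% of that in PM.

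Cdx1 (chromosome 18) was the member that was higher in CD1530 at every time point. Its PM libraries held 32.7, 32.8 and 34.7 CPM. In CD1530 it kept 9.25, 9.92 and 9.33 CPM at D6.25, 11.1, 8.41 and 9.004 CPM at D6.75, 4.63, 5.14 and 4.85 CPM at D7.5, 11.6, 12.6 and 11.9 CPM at D8.5 and 9.496, 9.08 and 7.70 CPM at D10. In AGN it held 5.399, 5.61 and 5.39 CPM at D6.25 and 0.485, 0.534 and 0.503 CPM at D6.75. At D8.5 it was at 0, 3 and 3 counts and at D10 at 0, 1 and 3 counts in AGN, with the 0 of D8.5 in the library of greatest depth.

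The difference in Cdx1 was 0.80 ± 0.12 (log2, SE) at D6.25 with adjusted p = 3.33e-05, and 4.21 ± 0.20 at D6.75 with adjusted p = 1.74e-20. It was 4.25 ± 0.26 at D7.5. From the summed counts, CD1530 stood 151-fold above AGN at D8.5 (95% interval 69.2 to 414, exact binomial, for counting error only) and 109-fold at D10 (42.2 to 400). Without AGN D8.5 replicate 1, the library at 0, the D8.5 ratio was 77.3 (35.3 to 211), and without AGN D10 replicate 3, which held 3 of the 4 counts, the D10 ratio was 287 (51.2 to 11340). Leaving out single libraries in these ratios was chosen after seeing the data. These intervals take reads as independent, which PCR copies are not.

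Cdx2 (chromosome 5) fell steadily in both conditions, from 20.7, 25.0 and 22.6 CPM in PM to 0.254 ± 0.12 CPM in CD1530 and 0.0604 ± 0.06 CPM in AGN at D10. It was called higher in CD1530 at D8.5, by 1.32 ± 0.39 with adjusted p = 0.00563, where the libraries held 14, 14 and 8 counts in CD1530 and 12, 4 and 4 counts in AGN. At D10 the comparison rested on 14 against 3 counts, a ratio of 4.14 with a counting interval of 1.15 to 22.5, and adjusted p = 0.0315. The ratio was 8.19 (1.25 to 346) without AGN D10 replicate 3 and 2.75 (0.767 to 14.9) without AGN D10 replicate 2. That call was lost with DESeq2 (adjusted p = 0.0595) and without CD1530 D10 replicate 2, AGN D10 replicate 1 or AGN D10 replicate 2 (adjusted p from 0.0679 to 0.161).

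Cdx4 (chromosome X) was the least abundant member in PM. It held 2.11, 2.31 and 2.59 CPM in PM, and at D6.75 0.901, 0.727 and 0.683 CPM in CD1530 and 1.54, 1.41 and 1.28 CPM in AGN. Cdx2 was called at neither D6.75 nor D7.5. Unlike Cdx1, Cdx4 was lower in CD1530, by -0.88 ± 0.27 (adjusted p = 0.0183) at D6.75 and -1.61 ± 0.52 (adjusted p = 0.0164) at D7.5. The D6.75 call was lost with only the compared groups fitted (adjusted p = 0.0592) and without CD1530 D6.75 replicate 2 or 3 or AGN D6.75 replicate 1 (0.0505 to 0.0783), and the D7.5 call without CD1530 D7.5 replicate 2 (0.108) or AGN D7.5 replicate 2 (0.0917). At D10 it was at 0, 0 and 0 counts in CD1530 and 1, 1 and 3 counts in AGN. Against a floor of 3 counts over the CD1530 group, the 5 AGN counts gave a ratio of 1.88, or 1.14 without AGN D10 replicate 3. These ratios leave out the counting error of the AGN counts, so they are not lower bounds. The fit called the difference between conditions at D10 (adjusted p = 0.0154), but not without AGN D10 replicate 3 (adjusted p = 0.0964). By the same floor PM stood at 43.2 times CD1530 D10, or 27.9 times without CD1530 D10 replicate 1.

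**Figure D2:**
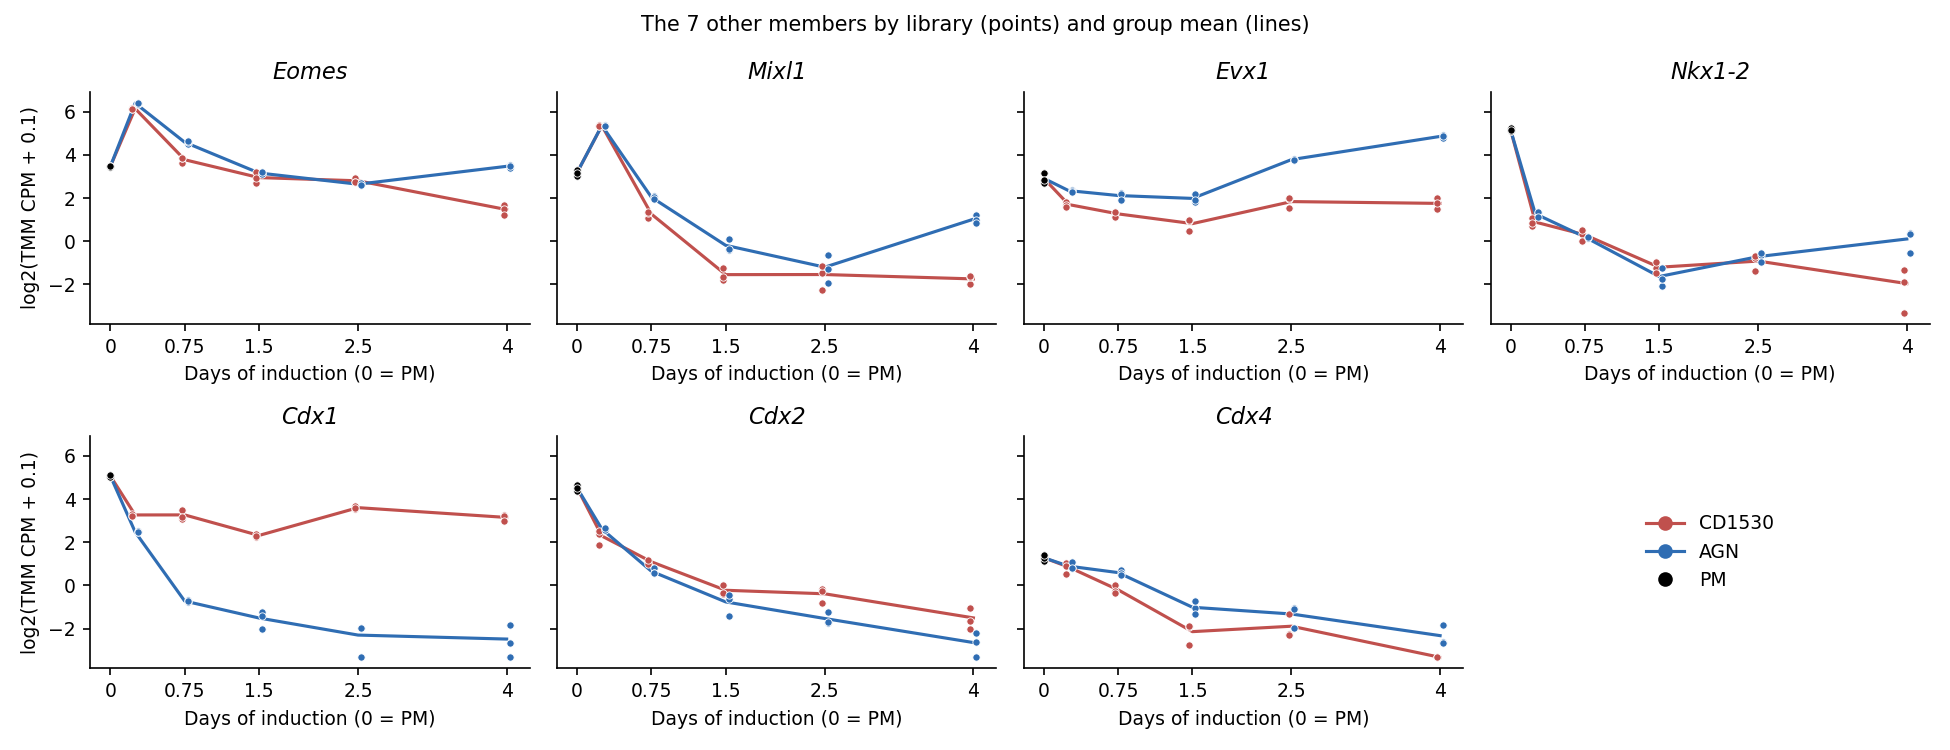
Levels of the 7 tested members as log2(TMM CPM + 0.1) (shared vertical axis) against days of induction, with PM at day 0; points are libraries, lines join group means, and a library at 0 counts sits at the bottom. Eomes and Mixl1 peaked at D6.25 in both conditions, Evx1 climbed in AGN to 28.7 CPM at D10, and Cdx1 stayed between 4.88 and 12.0 CPM in CD1530 while it went below 0.6 CPM in AGN from D6.75.

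Read by time point, CD1530 against AGN called Cdx1 higher, and Evx1 and Eomes lower, at D6.25, that is 1 and 2 of the 7 where 1.23% and 0.695% of all genes were called higher and lower. The Eomes difference there was small, -0.25 ± 0.06, and its call was lost without CD1530 D6.25 replicate 3, AGN D6.25 replicate 1 or AGN D6.25 replicate 3 (adjusted p from 0.0512 to 0.0805). Without CD1530 D6.25 replicate 3, 1 of the 7 members was called. At D6.75, Cdx1 was higher and Evx1, Mixl1, Eomes and Cdx4 were lower, 1 and 4 of 7 against 7.94% and 10.0%. Cdx1 was higher and Evx1, Mixl1 and Cdx4 were lower at D7.5, 1 and 3 of 7 against 15.2% and 11.8%.

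By D8.5, 2 members (Cdx1 and Cdx2) were higher and 1 (Evx1) was lower, against 20.4% and 19.6% of all genes. All 7 were called at D10, Cdx1 and Cdx2 higher and the other 5 lower, against 22.7% and 24.0%. A test of whether the difference between conditions was the same at all 5 time points called all 7 members, where 48.8% of all genes were called.

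**Figure D3:**
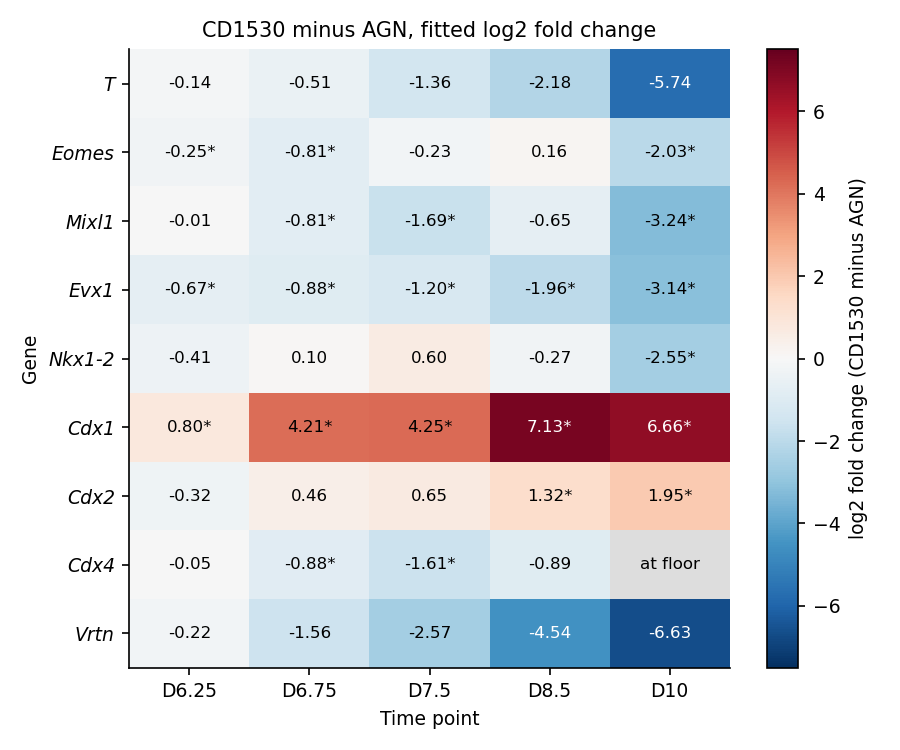
Fitted log2 fold change, CD1530 minus AGN, for the 9 members (rows) at 5 time points (columns); red is higher in CD1530, blue higher in AGN, and asterisks mark adjusted p under 0.05 for the 7 tested members (T and Vrtn carry no test). Cdx4 at D10 is grey because its CD1530 libraries held 0 counts. Cdx1 is red throughout, T, Vrtn and Evx1 turn deeper blue with time, and Nkx1-2 and Cdx2 change late.

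From D8.5 to D10, Eomes and Nkx1-2 were called higher in AGN and lower in CD1530, and Cdx2 and Cdx4 were called lower in both. In AGN, Evx1 rose by 1.08 ± 0.10, Mixl1 by 2.31 ± 0.26, Eomes by 0.84 ± 0.10 and Nkx1-2 by 0.90 ± 0.31 (log2, SE), with adjusted p of 9.77e-13, 3.01e-10, 8.49e-10 and 0.0125. In AGN Cdx2 fell from 20 to 3 counts over the group, a ratio of 4.37 (counting interval 1.30 to 23.0, adjusted p = 0.0137), and Cdx4 from 24 to 5 counts, a ratio of 3.15 (1.18 to 10.6, adjusted p = 0.0199). In CD1530, Eomes fell by -1.35 ± 0.13, Cdx1 by -0.46 ± 0.11, Cdx2 by -1.39 ± 0.42 and Nkx1-2 by -1.38 ± 0.52. Cdx4 fell there from 9 counts to 0, a ratio of 3.12 against the floor of 3 counts. In CD1530, Evx1 (-0.10 ± 0.17, adjusted p = 0.632) and Mixl1 (-0.29 ± 0.52, adjusted p = 0.688) did not pass the test. The libraries of both time points overlapped for Nkx1-2 in CD1530 and for Cdx4 in AGN.

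Of the 7, 4 were called higher and 2 lower in AGN, where 29.9% and 29.5% of all genes were, and 0 higher and 5 lower in CD1530, where 27.4% and 29.9% were. The rise of Nkx1-2 in AGN lost its call without AGN D10 replicate 1 or 2 (adjusted p = 0.0804 and 0.0713). Its fall in CD1530 lost its call without CD1530 D8.5 replicate 2 or 3 or CD1530 D10 replicate 2 (0.0653 to 0.188). In AGN the Cdx2 call was lost without AGN D8.5 replicate 1 or AGN D10 replicate 2 (0.0995 and 0.0868), and the Cdx4 call with DESeq2 (0.0503) and without AGN D8.5 replicate 1, AGN D10 replicate 1 or AGN D10 replicate 2 (0.0774 to 0.120). Without AGN D10 replicate 3 the Cdx2 and Cdx4 ratios in AGN were 8.64 and 5.19, and without AGN D10 replicate 2 that of Cdx2 was 2.90. In CD1530 the Cdx4 ratio against the floor was 2.03 without CD1530 D8.5 replicate 3 and 2.01 to 2.12 without a CD1530 D10 library. Without AGN D10 replicate 2, 3 of the 7 were called in AGN.

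Genes of the notochord and node, where T also acts, were given beside this turn. Of 8 such genes 5 were higher and 3 lower at D10 than at D8.5 in AGN, with a median log2 change of 0.98 against -0.01 for all genes. Noto, a notochord homeobox factor, was at 2.69, 1.63 and 2.67 CPM in AGN at D10 and at 0 in all 3 CD1530 libraries. Its AGN D8.5 libraries held 0.0542, 0.0510 and 0.0530 CPM, so no fold is given. In AGN Foxa2 rose by 2.56 ± 0.12 (log2, SE) and Foxj1, a ciliogenesis factor of the node, by 2.38 ± 0.10, whereas Krt8 fell by -0.34 ± 0.05. Shh, also on this list, went down in AGN from 4.48 ± 0.11 CPM at D8.5 to 2.97 ± 0.17 CPM at D10. At D10, 2 of the 8 (Krt8 and Krt18, keratins of many epithelia) were higher in CD1530 and 5 were lower, and the median log2 difference from AGN was -0.99. The summed level of the list was 171 ± 5.98 CPM in AGN and 164 ± 4.14 CPM in CD1530. Krt8 and Krt18 made up 91.7 ± 3.47 and 140 ± 2.28 CPM of it, and the other 6 genes 79.8 ± 2.96 CPM in AGN and 23.5 ± 1.93 CPM in CD1530. The part of these genes in the level of T was not tested.

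Of the 8 anterior streak genes, 3 were higher and 2 lower at D10 than at D8.5 in AGN, among them Cer1 (1.40 ± 0.12), Lhx1 (1.15 ± 0.15) and Gsc (1.05 ± 0.16) higher and Otx2 (-0.93 ± 0.06) lower. Of the 12 tailbud genes 6 were higher and 2 lower at this step in AGN. Of 8 upstream signals of the streak 5 were higher and 3 lower, where 29.9% and 29.5% of all genes were. Among these signals Fgf4 went down, from 100 ± 1.82 CPM to 32.5 ± 1.76 CPM. Fgf8, a ligand of the streak and tailbud, rose in AGN by 2.67 ± 0.19. It was at 5.81, 6.38 and 7.37 CPM in AGN and 0.152, 0.495 and 0.337 CPM in CD1530 at D10.

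Over the whole course all 7 tested members were lower in CD1530 at D10 than in PM, where 43.3% of all genes were called higher and 39.9% lower. In AGN 5 were lower, 1 (Evx1, by 1.95 ± 0.11) was higher and Eomes was not called, where 41.6% and 40.4% of all genes were. Among the 6 tested members with counts in CD1530, Nkx1-2 stood farthest below PM, at -7.74 ± 0.22 (log2, SE) from PM, followed by Cdx2 at -6.47 ± 0.22 and Mixl1 at -5.46 ± 0.22. The CD1530 D10 libraries held 6, 0 and 3 counts of Nkx1-2, 3, 7 and 4 of Cdx2 and 3, 4 and 4 of Mixl1. Depth therefore limits these folds and their order. In AGN, Cdx1 stood 412-fold below PM (interval 161 to 1514) and Cdx2 375-fold (128 to 1822), on 4 and 3 counts, and Cdx4 23.0-fold (9.62 to 71.9) on 5 counts. Without AGN D10 replicate 3 these ratios were 1087, 743 and 37.9, and without AGN D10 replicate 2 that of Cdx2 was 249.2. T and Vrtn were at -7.28 and -7.11 in CD1530 and at -1.54 and -0.48 in AGN on the same scale, with no test.

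Levels between genes were compared per kilobase of exon. In PM, T was the highest at 34.1 CPM per kb, followed by Cdx1 at 19.1, Nkx1-2 at 10.96, Cdx2 at 10.1, Vrtn at 7.09, Mixl1 at 3.90, Eomes at 2.63, Evx1 at 2.58 and Cdx4 at 1.19. At D10 the order in AGN was T at 11.7 CPM per kb, Evx1 at 9.98, Vrtn at 5.10 and Eomes at 2.64, with all others below 1. In CD1530 at D10 Cdx1 led at 5.01 CPM per kb, Evx1 was at 1.13, and the other 7 were below 1.

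At D10 the lists that stand around the streak differed between conditions as follows. Of the 8 anterior streak genes, 3 were higher and 4 lower in CD1530, with a median log2 difference of -0.80 against -0.02 for all genes. Cer1 differed by -5.81 ± 0.24, Otx2, a factor of the anterior epiblast, by -5.28 ± 0.12, Lhx1 by -1.91 ± 0.18 and Mesp2 by 1.91 ± 0.50. Of the 12 tailbud genes, 6 were higher and 3 lower, with a median of 0.20. Cyp26a1, which degrades retinoic acid and is itself induced by it, differed by 6.11 ± 0.08 and Sp8 by 1.97 ± 0.20, both higher in CD1530, and Fgf8 by -4.31 ± 0.25. Wnt3a was at 0.707, 1.05 and 0.675 CPM in CD1530 and 0.0625, 0.0602 and 0.119 CPM in AGN.

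Among 8 upstream signals of the streak 1 was higher and 7 lower in CD1530, with a median of -1.16. Fgf4 differed by -2.58 ± 0.08 and Tdgf1, the Nodal co-receptor, by -1.59 ± 0.04. Of 8 Wnt feedback genes, 2 were higher and 5 lower, with a median of -0.53, among them Dkk1 (-1.86 ± 0.16) and Notum (-1.32 ± 0.16). Several genes stand in more than 1 list: Fgf8 and Wnt3a are among both the tailbud genes and the upstream signals. Of the tailbud genes, Cyp26a1 is also a retinoid response gene, Sp5 a Wnt feedback gene, and Tbx6 and Msgn1 are also paraxial mesoderm genes. At D10 Cyp26a1 held 169 ± 5.76 CPM of the tailbud sum of 245 ± 9.03 CPM in CD1530. In AGN it held 2.45 ± 0.26 CPM of 72.6 ± 3.01 CPM.

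Markers of pluripotency and the primed epiblast, cells that precede the streak, also differed between conditions late in the course. Their summed level was 3169 to 3284 CPM in PM, 1681 to 1750 CPM in CD1530 and 1691 to 1729 CPM in AGN at D6.25, 964 to 1005 and 1889 to 1922 CPM at D8.5, and 257 to 268 and 786 to 815 CPM at D10. The gap at D8.5 lay mainly in Dnmt3b, at 87.6 ± 2.54 CPM in CD1530 and 874 ± 32.9 CPM in AGN, and the other 8 genes summed to 895 ± 19.5 and 1032 ± 18.04 CPM. At D8.5, 4 of the 9 genes were higher and 5 lower in CD1530, with Nanog at 133 ± 6.97 CPM against 73.3 ± 2.19 CPM in AGN. At D10 the sums without Dnmt3b were 233 ± 4.97 and 448 ± 10.7 CPM. At D10 3 of these 9 genes were higher and 5 lower in CD1530, with a median of -1.69. Fgf5 differed by -4.49 ± 0.14, Dnmt3b by -3.50 ± 0.05, Pou5f1 by -2.49 ± 0.06 and Pou3f1 by -2.08 ± 0.11. The 3 higher ones were Nanog (46.1 ± 1.18 CPM in CD1530 and 35.2 ± 1.66 CPM in AGN), Esrrb (37.9 ± 0.88 and 29.9 ± 0.51 CPM) and Dppa5a (74.4 ± 3.81 and 63.9 ± 4.97 CPM). Pou5f1 was at 149 ± 3.23 CPM in AGN and 26.6 ± 1.59 CPM in CD1530 at D10. From D8.5 to D10 in AGN 0 of the 9 were called higher and 8 lower, where 29.9% and 29.5% of all genes were. In CD1530 at the same step 0 of the 9 were called higher and 9 lower, against 27.4% and 29.9% of all genes. The median log2 change of the list was -1.52 in CD1530 and -1.31 in AGN. In AGN this was the step at which T, Evx1, Mixl1 and Eomes went up and Vrtn went down. The part of these 9 genes in the levels of the members was not tested.

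**Figure D4:**
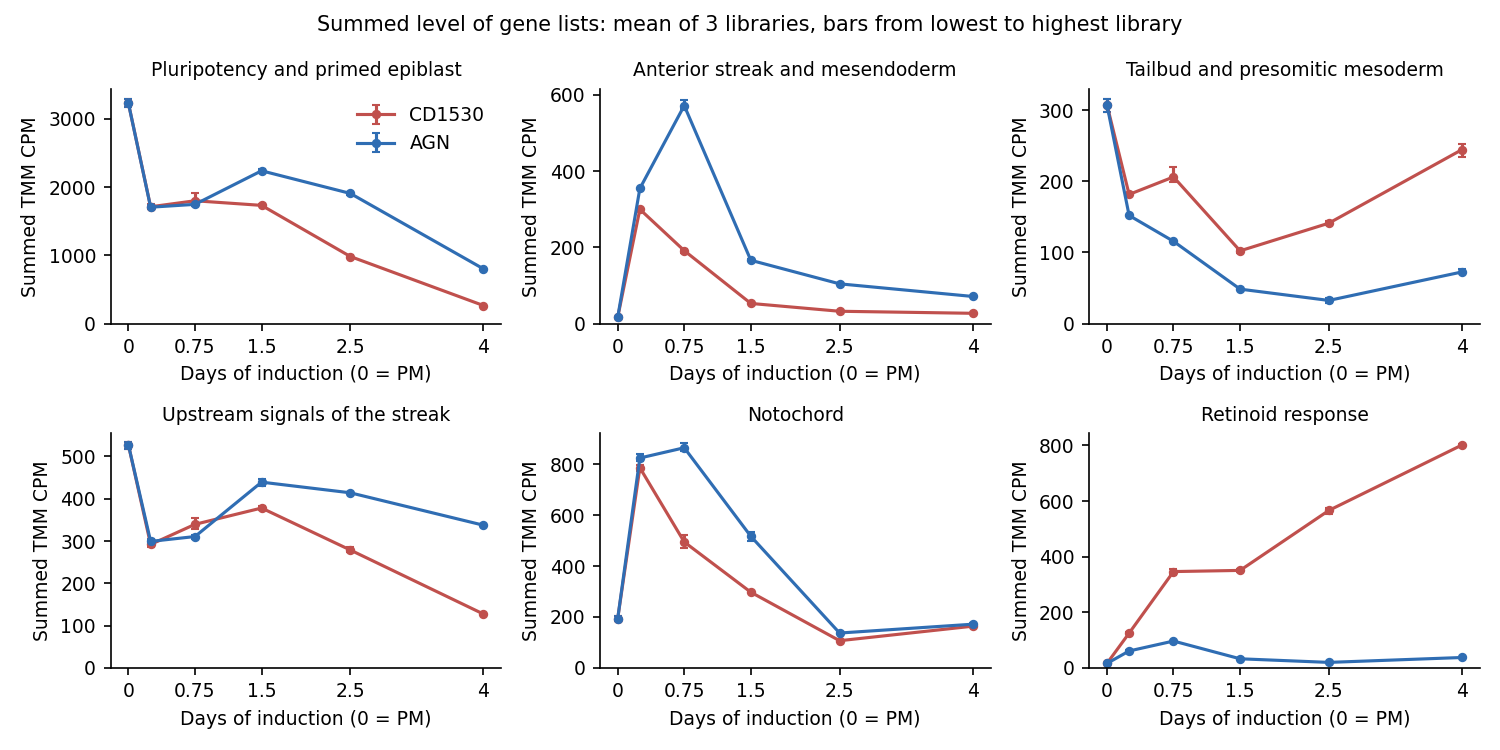
Summed TMM CPM of 6 gene lists (vertical axes, linear from 0) against days of induction in CD1530 and AGN, with PM at day 0; points are means of 3 libraries and bars run from the lowest to the highest library. Pluripotency and epiblast genes were at 801 CPM in AGN and 264 CPM in CD1530 at day 4, retinoid response genes at 37.2 and 801.5 CPM, and the anterior streak genes peaked in AGN at day 0.75 with 571 CPM. Cyp26a1 is in both the tailbud and the retinoid response sums.

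Other cell types were checked by their markers. At D10 the 8 neural genes had 7 higher and 1 lower in CD1530, with summed levels of 183 to 196 CPM in CD1530 and 98.8 to 104 CPM in AGN. Neurog2 was at 0 in all 3 AGN libraries, and Sox1 differed by 5.43 ± 0.24 and Pax6 by 4.82 ± 0.24 (log2, SE), both higher in CD1530. The 8 endoderm genes had 3 higher and 3 lower (148 to 153 CPM in CD1530, 162 to 169 CPM in AGN). Of 6 trophoblast genes, 4 were in the table, 3 higher and 1 lower (26.4 to 28.6 and 11.6 to 14.6 CPM), while Elf5 and Tpbpa were not in it. Eomes and Cdx2 also act in trophoblast, and Foxa2 is in both the endoderm and the notochord lists. Of 6 tendon genes 0 were higher and 4 lower, and of 6 cartilage genes 0 were higher and 6 lower. The 6 paraxial mesoderm genes had 3 higher and 1 lower. For none of these lists was a part in the members' levels tested.

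The genes whose levels were most like those of T over the 11 group means of log2(CPM + 1), among 14424 genes with at least 1 CPM in some group, were Fabp4 (r = 0.969), Atp2c1 (0.964), Marveld3 (0.963), Ezr (0.958) and Serpinb1a (0.948). Pearson's r is given as a description over 11 points that share the PM group and a time axis. Fabp4, a fatty acid binding protein, was at 1.50 ± 0.35 CPM at D8.5 and 2.49 ± 0.57 CPM at D10 in AGN, and Ezr, the membrane linker ezrin, at 291 ± 4.95 and 285 ± 11.2 CPM. The libraries of the time points overlapped for Fabp4, and neither gene was tested between them. Over all 33 libraries Ezr ranked 1 and Fabp4 ranked 16.

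Most like Vrtn were Wwc1 (r = 0.963), Dnmt3b (0.955), Myb (0.947), Slc6a15 (0.940) and Cdh3 (0.925). Dnmt3b, a de novo DNA methyltransferase of the epiblast, had the same peak, with 716 ± 13.6 CPM at D7.5, 874 ± 32.9 CPM at D8.5 and 353 ± 4.01 CPM at D10 in AGN, and 31.2 ± 1.34 CPM in CD1530 at D10. Myb peaked instead in PM, at 37.5 ± 0.35 CPM, and in AGN at 24.6 ± 1.42 CPM at D7.5.

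**Figure D5:**
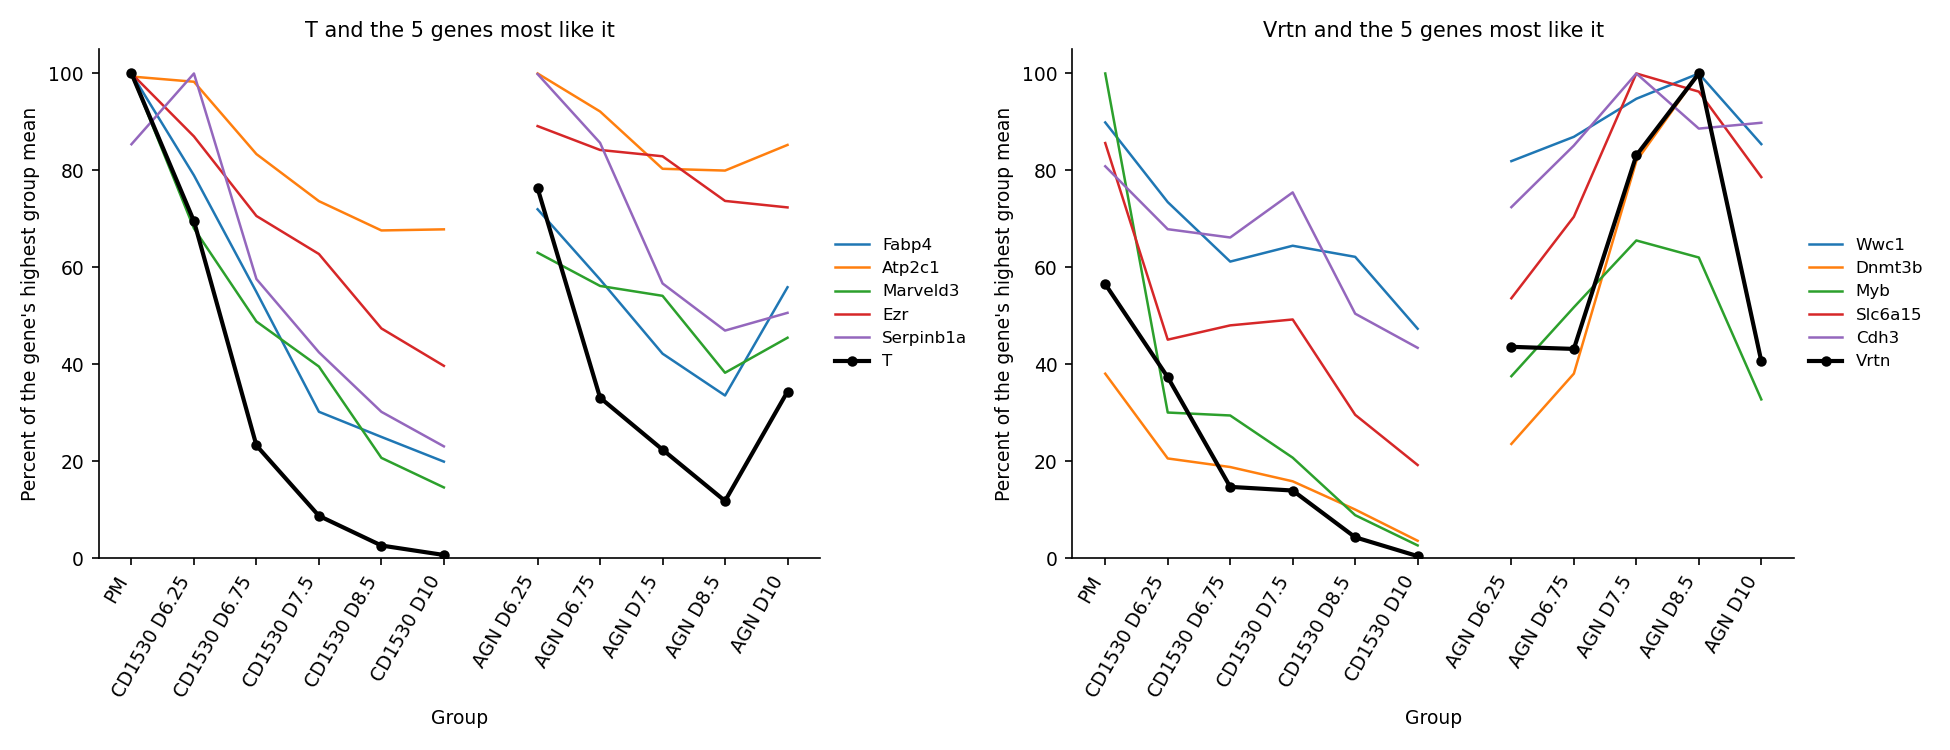
Group means of T (left) and Vrtn (right) and of the 5 genes most like each, as percent of each gene's own highest group mean (vertical axis), over PM and the CD1530 time points and then the AGN time points. T went below 1% in CD1530 at D10 and was at 34.4% in AGN; Dnmt3b and Vrtn both peaked in AGN at D8.5.

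For the other members the closest genes were Evx1os (r = 0.956) and Ttc7 (0.942) for Evx1, Sprr2a2 (0.974) and Sprr2a3 (0.973), near-identical copies of each other, for Mixl1, Ap1s3 (0.968) and Rdx (0.961) for Eomes, and Dusp14 (0.944) and C1ql2 (0.936) for Cdx1. Those of Cdx2 were Unc13d (0.987) and Calb2 (0.984), of Cdx4 Stfa3 (0.987) and Clec4e (0.985), and of Nkx1-2 Cfap61 (0.986) and Cnga4 (0.985). Among the members themselves the same measure gave 0.927 for Mixl1 with Eomes, 0.902 for Cdx2 with Nkx1-2 and 0.900 for Cdx2 with Cdx4. T gave 0.827 with Cdx4, 0.799 with Mixl1, 0.764 with Vrtn, 0.761 with Eomes, 0.701 with Cdx2, 0.649 with Nkx1-2, 0.257 with Evx1 and 0.0130 with Cdx1, and Evx1 gave -0.486 with Cdx1.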

How the data were processed

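The authors sequenced paired-end RNA libraries (NEB Next Ultra kit) and, per the labels and the study's methods, aligned with STAR to GRCm38 and counted with featureCounts. Annotation version, strand setting and handling of multiply mapped reads are not given in the sources used here. The deposited table held raw counts for 17120 genes in 33 libraries of 17116084 to 38120841 counts.

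Counts were scaled by TMM and fitted over all 11 groups with edgeR 4.0.16 (limma 3.58.1, R 4.3.3) by the quasi-likelihood test, with p-values adjusted by Benjamini-Hochberg over 17120 genes (threshold 0.05); edgeR's expression filter removed none of them. DESeq2 1.42.0 was an alternative, and Python 3.11.15, pandas 2.3.3 and SciPy 1.17.1 made the tables. Each SE was derived from the test, as the absolute log2 change over the square root of its F statistic. Scripts were tested on simulated data. Same-numbered libraries did not deviate together (0 of 15 pairs over a correlation of 0.1), so the numbers were not taken as pairs.

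The members and gene lists were chosen with earlier results of these data known. List genes named with a fold are given as illustrations of their list's count. The split of list sums by Krt8 and Krt18 or Dnmt3b, and the levels of Cyp26a1 and Cer1 given beside their list sums, were chosen after seeing the data. Likeness was Pearson's r over group means, naming 5 genes each for T and Vrtn and 2 for each other member. Promoter windows came from RefSeq on GRCm38.p6. Counting intervals are exact binomial, and 3 counts was the floor for a group at 0. A ratio against this floor leaves out the counting error of the higher group and is not a lower bound.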

Additional observations from a re-analysis of the deposited data

Results flagged for a closer look

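The difference between CD1530 and AGN changed over the 5 time points for all 7 tested members (condition by time interaction, edgeR quasi-likelihood test with Benjamini-Hochberg adjustment). The adjusted p was 2.28e-20 for Cdx1, 1.42e-14 for Eomes, 1.21e-13 for Evx1, 2.22e-10 for Mixl1, 0.00038 for Nkx1-2, 0.000592 for Cdx2 and 0.0144 for Cdx4. From D8.5 to D10, T moved in opposite directions in all libraries of the conditions, by -2.02 (log2) in CD1530 and 1.54 in AGN, and this difference was not tested.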

How the results depend on the processing

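Counts of called members stayed within 1.5 times their value under DESeq2, DESeq2 size factors, library size only, no filter, 1 CPM in 3 libraries, the likelihood ratio test and a fit without robust estimation. With the replicate block, the counts were 3, 5, 4, 3 and 7 from D6.25 to D10, and the block changed no call. With only the compared groups fitted, 2 members were called from D8.5 to D10 in CD1530, where that fit's filter left Cdx2, Cdx4, Mixl1 and Nkx1-2 untested. The same fit called 4 members from D8.5 to D10 in AGN. Between conditions it called 3, 4, 3, 2 and 5 members from D6.25 to D10. Cdx4 at D6.75 was the only call lost in a member that this fit tested. Its other lower counts came from members that its filter left untested. Leaving out 1 library gave 1 to 3 members at D6.25, 4 to 5 at D6.75, 3 to 5 at D7.5, 3 at D8.5 and 6 to 7 at D10, and 4 to 5 in CD1530 and 3 to 6 in AGN from D8.5 to D10. Log2 differences that were not called changed sign. At D6.25 Mixl1 ran from -0.030 to 0.0041 and Cdx4 from -0.17 to 0.092 without 1 library. Nkx1-2 at D6.75 ran from -0.022 to 0.25 and Mixl1 at D8.5 from -0.98 to 0.051. Eomes in AGN D10 against PM became -0.15 with library size only, -0.0080 with the compared groups only and ran from -0.037 to 0.042 without 1 library. From D8.5 to D10, Evx1 in CD1530 ran from -0.24 to 0.032 and Mixl1 from -0.63 to 0.048, and Cdx1 in AGN became -0.073 with library size only and ran from -1.22 to 0.56 without 1 library. With library size only, T in AGN D10 was at -1.69 against PM and 1.44 against D8.5. The cause was not tested. Of 24 likeness choices, 12 stayed with 33 libraries and 6 with Spearman's rho. Genes under about 10 counts per library are limited by depth.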
